A study of Mus musculus with 18 samples.

Results

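Tuft cells are rare chemosensory cells of the intestinal epithelium, and 9 genes that mark them were followed here through colitis-associated cancer in the mouse colon. The 9 genes were taken by symbol (*Dclk1*, *Trpm5*, *Pou2f3*, *Il25*, *Gfi1b*, *Avil*, *Il17rb*, *Sh2d6* and *Alox5*), and all had a row among the 47729 genes of the count table. Colon RNA was sequenced in 9 libraries, 3 in each of 3 groups, to learn how the colon differed between WT mice and mice that overexpress claudin-2. Control WT (libraries 1 to 3) were WT colons with the treatment label Control. AOM-DSS WT (libraries 4 to 6) received 1 dose of azoxymethane (AOM, a carcinogen) at 10 mg/kg and 3 cycles of 2.5% dextran sulfate sodium (DSS, which injures the colon epithelium), and AOM-DSS Claudin-2TG (libraries 7 to 9) received the same regimen and carried a *Cldn2* transgene under the villin promoter, which is active in the intestinal epithelium and not in tuft cells alone. The mice were on a C57BL/6 background, and their ages were not given in the sources used here. Untreated transgenic mice were not analysed here, so the effect of the transgene without AOM/DSS cannot be told apart from its effect under it. Whole colon tissue was measured, so that fewer tuft cells and less RNA per tuft cell cannot be told apart. The treatment text of the Control WT samples also names AOM/DSS, and the group was taken from the treatment label.

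Libraries held 14142711 to 22262546 counts on genes, and 3 counts, the limit used here for a gene at 0, corresponded to 0.135 to 0.212 CPM, the counts of a gene scaled to a common library total. The study describes its RNA-seq groups as groups of mice, but the labels do not tie single libraries to animals. P-values measure only the spread between the 3 libraries of each group. Control WT library 1 stood apart from the other 8: *Xist* was at 219.9 CPM against at most 0.212, and Y-linked genes summed to 0.510 CPM against 145.6 to 191.4. This is the pattern of a female library beside 8 male ones, so Control WT mixes the sexes and the treated groups do not. The paper states that its mice were matched for age and sex. Library 1 also had the highest smooth muscle markers (2437 CPM for the sum of 4, against 583.4 to 1927 in the other 8). AOM-DSS WT library 4 differed more from libraries 5 and 6 of its group (chi-square per degree of freedom 66.3 and 65.3 over genes) than these did from each other (31.9) or any pair did within the other groups (16.8 to 25.1). Epithelial markers were present in every library (16319 to 22454 CPM for the sum of 10), which fits the colon label. Each call of the 9 genes that changed without 1 library is given with and without it below.

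Tuft cells detect luminal signals through a taste-type cascade, in which a G protein and phospholipase C release calcium and open the cation channel TRPM5. They depend on the transcription factor POU2F3, and in the small intestine their release of IL-25 starts a loop with group 2 innate lymphoid cells and IL-13, which in turn increases tuft and goblet cells. They also make leukotrienes and prostaglandins, for which ALOX5 is the first leukotriene enzyme. DCLK1, a microtubule-associated kinase, is the usual histological marker of the cell in the mouse gut.

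All 9 genes were low in the colon. Levels of different genes are compared per length, as CPM per kilobase of the exonic length in the count table. In Control WT, *Sh2d6*, an SH2-domain adaptor gene, was highest at 2.64 ± 0.725 (SD, n = 3), followed by *Avil*, which encodes the actin-bundling protein advillin, at 2.01 ± 0.636, and *Trpm5* at 1.39 ± 0.283. *Dclk1* (0.988 ± 0.262), *Il17rb*, the receptor subunit for IL-25 (0.808 ± 0.124), *Alox5* (0.805 ± 0.356) and *Pou2f3* (0.637 ± 0.0233) came next. *Gfi1b*, a transcriptional repressor, was at 0.326 ± 0.0685, and *Il25* was last at 0.133 ± 0.0357. In this order the ranges of neighbours did not overlap between *Avil* and *Trpm5*, between *Pou2f3* and *Gfi1b* and between *Gfi1b* and *Il25*, and all other neighbours overlapped. In AOM-DSS WT, *Avil* came first at 8.43 ± 7.21, with a range that overlapped that of *Sh2d6* (1.72 ± 0.426), and *Trpm5* came after *Il17rb* (0.909 ± 0.299), at 0.571 ± 0.0852, with overlapping ranges. In AOM-DSS Claudin-2TG, *Sh2d6* (1.73 ± 0.231) and *Avil* (1.52 ± 0.169) were again the first and second, with overlapping ranges. *Trpm5* followed at 0.859 ± 0.181, and its range lay below that of *Avil*.

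**Figure D1:**
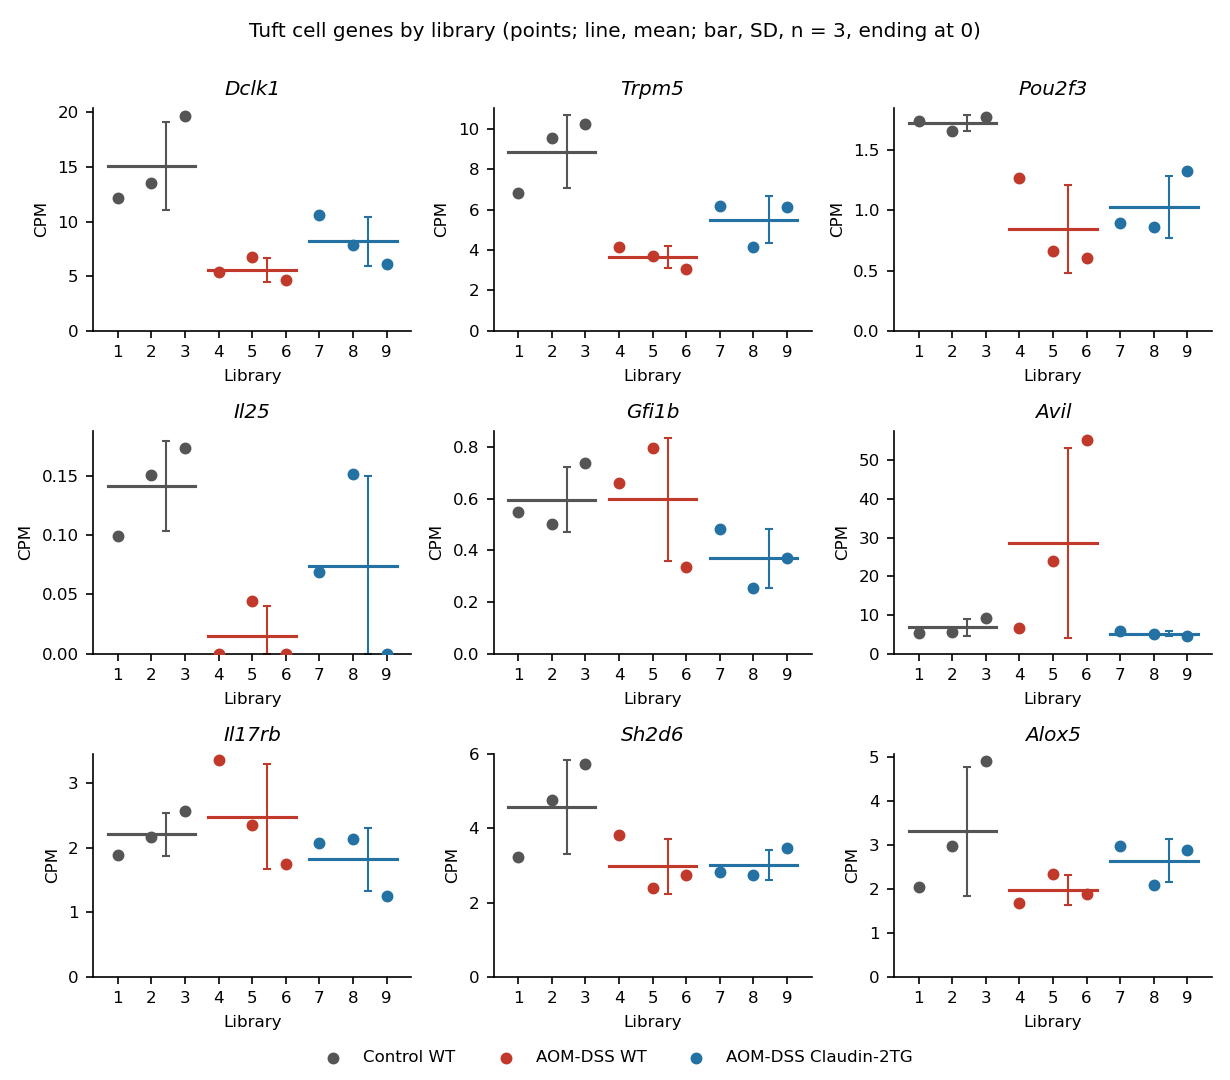
TMM-scaled CPM of each of the 9 genes on the y axis in each library on the x axis, with points for libraries, lines for group means and bars for the SD of 3 libraries. Dclk1, Trpm5 and Pou2f3 lie lower in all AOM-DSS libraries than in all Control WT libraries, and Avil stands at 24.1 and 55.1 CPM in libraries 5 and 6 of AOM-DSS WT and at 9.34 CPM or less elsewhere.

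The first comparison, AOM-DSS WT against Control WT, asked how the treated WT colon differed from the untreated one. *Dclk1* and *Trpm5* fell, 2.66-fold and 2.38-fold, and none of the 9 genes passed the test in the other direction. Of the 8 genes tested with edgeR's quasi-likelihood test (*Il25* had too few counts), 2 were called at an adjusted p under 0.05, and of all 15437 genes tested 15% were called, 6.92% as lower. An unadjusted p under 0.05 was reached by 4 of the 8 and by 32.6% of all genes. Over the 8, 5 log2 fold changes were negative and 3 positive, and the median was -0.66, against 0.02 over all genes tested.

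*Dclk1* (chromosome 3, 55242364 to 55539068, plus strand, GRCm38) was at 12.1, 13.5 and 19.7 CPM in the 3 Control WT libraries and at 5.33, 6.77 and 4.62 CPM in the 3 AOM-DSS WT libraries. All AOM-DSS WT libraries lay below all Control WT libraries, as for 20.3% of all genes tested, and the highest AOM-DSS WT library was library 5. The log2 fold change was -1.41 (SE 0.24, adjusted p = 0.0138 by edgeR).

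*Trpm5* (chromosome 7, 143069153 to 143094642, minus strand) was at 6.82, 9.54 and 10.2 CPM in Control WT and at 4.17, 3.71 and 3.08 CPM in AOM-DSS WT. Again the lowest Control WT library, library 1, lay above the highest AOM-DSS WT library. The log2 fold change was -1.25 (SE 0.24, adjusted p = 0.0183 by edgeR). For both genes the two-sided exact permutation test gave p = 0.1, the smallest that 3 against 3 libraries allow. Both calls were lost without Control WT library 2 (adjusted p = 0.0585 for *Dclk1* and 0.0803 for *Trpm5*, edgeR) and without Control WT library 3 (0.0528 and 0.0752), and both held without library 1.

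*Pou2f3* (chromosome 9, 43123939 to 43210369, minus strand) was at 1.74, 1.66 and 1.78 CPM in Control WT and at 1.27, 0.663 and 0.603 CPM in AOM-DSS WT. These groups did not overlap either, with library 4 nearest to the controls. The log2 fold change of -0.99 (SE 0.36) did not pass the test (adjusted p = 0.0991, edgeR), and it did without library 4 (-1.41, adjusted p = 0.0188). The values rested on few counts, 33 to 41 a library in Control WT and 9 to 25 in AOM-DSS WT.

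*Sh2d6* (chromosome 6, 72513644 to 72521634, minus strand) was at 3.23, 4.77 and 5.73 CPM in Control WT and 3.81, 2.39 and 2.75 CPM in AOM-DSS WT, a log2 fold change of -0.59 (SE 0.31, adjusted p = 0.219, edgeR). *Alox5* (chromosome 6, 116410077 to 116461178, minus strand) was at 2.04, 2.96 and 4.91 CPM against 1.68, 2.34 and 1.87 CPM, a log2 fold change of -0.72 (SE 0.36, adjusted p = 0.209, edgeR). Both sets of libraries overlapped, and for both genes Control WT library 3 was the highest of the 6. *Alox5* is also a gene of neutrophils, macrophages and mast cells.

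*Il17rb* (chromosome 14, 29996141 to 30008896, minus strand) was at 1.89, 2.16 and 2.56 CPM in Control WT and 3.35, 2.34 and 1.74 CPM in AOM-DSS WT (log2 fold change 0.20, SE 0.32, adjusted p = 0.699, edgeR). *Gfi1b* (chromosome 2, 28609450 to 28621982, minus strand) was at 0.547, 0.502 and 0.738 CPM against 0.660, 0.796 and 0.335 CPM (log2 fold change 0.05, SE 0.41, adjusted p = 0.946, edgeR). Neither gene separated the groups, and *Gfi1b* had only 5 to 18 counts in any of these 6 libraries.

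*Il25* (chromosome 14, 54932695 to 54935837, plus strand), the cytokine of the tuft cell loop, had 2, 3 and 4 counts in Control WT, 0, 1 and 0 in AOM-DSS WT and 1, 3 and 0 in AOM-DSS Claudin-2TG. All AOM-DSS WT libraries lay below all Control WT libraries (two-sided exact permutation p = 0.1, the smallest possible), while AOM-DSS Claudin-2TG overlapped both. The gene was left out of the main test by the filter on low counts, and with no filter it was not called in AOM-DSS WT against Control WT (unadjusted p = 0.0374, adjusted p = 0.184, edgeR). With 8 of the 9 libraries at or under 3 counts, no fold change is given.

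*Avil* (chromosome 10, 127000709 to 127020994, plus strand) was at 5.47, 5.72 and 9.34 CPM in Control WT and at 6.76, 24.1 and 55.1 CPM in AOM-DSS WT. Library 4 lay within the Control WT range, while libraries 5 and 6 lay above every other library of the study. The mean was 6.85 ± 2.16 CPM in Control WT and 28.6 ± 24.5 CPM in AOM-DSS WT (SD, n = 3), and with this spread the log2 fold change of 2.08 (SE 0.70) did not pass the test (adjusted p = 0.0924, edgeR). It did without library 4 (2.55, adjusted p = 0.00778) and in a fit of all 9 libraries (2.07, adjusted p = 0.0458), and without library 6 the log2 fold change was 1.19 (adjusted p = 0.210, edgeR). The level was alike in both sequencing lanes of these libraries, at 23.8 and 25.1 CPM in library 5 and 56.1 and 63.4 CPM in library 6, scaled by lane totals alone. *Avil* overlaps *Tsfm* on the opposite strand, and the strand setting of the counting was not given. *Tsfm* was at 30.4 to 40.3 CPM in all 9 libraries, with a log2 fold change of -0.02 (SE 0.14, adjusted p = 0.947, edgeR) in AOM-DSS WT against Control WT. *Trpm5* overlaps *Tssc4* and *Il17rb* overlaps *Actr8* in the same way, and neither neighbour was called in any comparison. *Dclk1* overlaps 6 annotated genes on either strand, of which 4 had 0 counts in all 9 libraries and the others at most 2 counts in any library.

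Seen within each library, *Avil* was at 1.13 to 1.72 times the per-length level of *Trpm5* in Control WT and at 1.43 to 2.30 times in AOM-DSS Claudin-2TG. In AOM-DSS WT this ratio was 3.05, 12.2 and 33.7. *Trpm5*, the divisor, was itself called lower there, which raises the ratio of any gene that fell less. In library 4 *Avil* was at 6.76 CPM, within the Control WT range of 5.47 to 9.34 CPM, so its ratio of 3.05 is not a rise of *Avil*. The ratio of *Dclk1* to *Trpm5*, the 2 genes that fell, stayed between 0.418 and 0.803 in all 9 libraries. That of *Pou2f3* to *Trpm5* lay between 0.341 and 0.719. *Sh2d6* lay at 1.68 to 2.43 times *Trpm5* in the Control WT and AOM-DSS Claudin-2TG libraries and at 2.37 to 3.37 times in AOM-DSS WT.

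**Figure D2:**
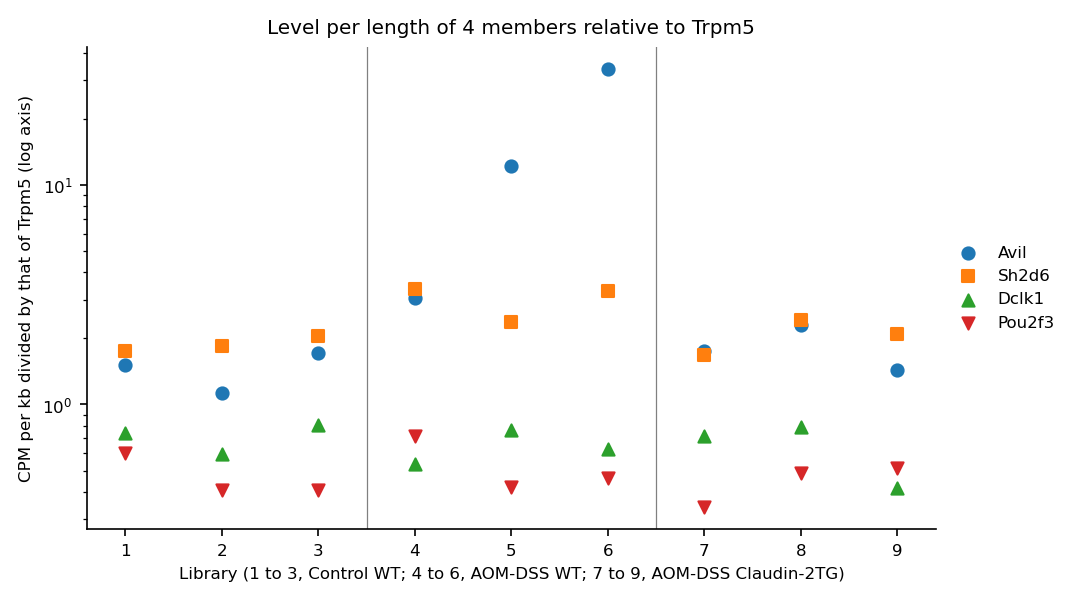
Per-length level (CPM per kilobase) of 4 genes divided by that of Trpm5, on a log y axis, in each library on the x axis. Avil reaches 12.2 and 33.7 times Trpm5 in libraries 5 and 6, while Dclk1 lies between 0.418 and 0.803 times and Pou2f3 between 0.341 and 0.719 times Trpm5 throughout. Trpm5, the divisor, was itself called lower in AOM-DSS WT.

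The promoters of *Trpm5* and *Avil* are shown as those of a gene that was called lower in AOM-DSS WT and of the gene with the widest spread there. Each sequence is the 250 bases before the RefSeq transcription start in GRCm38.p6, read 5′ to 3′ along the gene. Capitals mark ATGCAAA, the first 7 letters of the octamer ATGCAAAT that POU factors such as POU2F3 are known to bind, or its reverse complement TTTGCAT.
Trpm5, chr7:143094643-143094892, minus strand: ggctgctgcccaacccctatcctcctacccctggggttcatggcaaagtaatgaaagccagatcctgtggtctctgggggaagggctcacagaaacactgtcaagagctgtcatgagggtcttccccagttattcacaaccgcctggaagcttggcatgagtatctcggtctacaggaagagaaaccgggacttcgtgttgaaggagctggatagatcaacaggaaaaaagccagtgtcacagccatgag
Avil, chr10:127000459-127000708, plus strand: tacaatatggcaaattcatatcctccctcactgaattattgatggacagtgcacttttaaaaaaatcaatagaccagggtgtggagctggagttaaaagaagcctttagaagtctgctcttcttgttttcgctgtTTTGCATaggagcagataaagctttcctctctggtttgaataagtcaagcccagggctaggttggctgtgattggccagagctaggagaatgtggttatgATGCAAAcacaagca
The *Avil* window held 2 matches, beginning 115 and 15 bases before the start, and *Trpm5* held none of these letters. Of the 9 genes, 7 had windows in the RefSeq table used (8 windows, 2 of them for *Dclk1*), and *Pou2f3* and *Il25* had none. The 7 letters stood on either strand in 1 of those 8 windows, that of *Avil*, and in 4.12% of all 32851 windows of the same length. The full octamer stood in 0 of the 8 and in 1.60% of all windows. *1810046K07Rik*, a further tuft gene described below that was called lower in AOM-DSS WT, had 2 windows, and 1 of them held 2 matches to the full octamer. No other further tuft gene had its windows read here, so this match gives no share for the genes called lower. A match is a description of the letters and not a measured binding site.

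The second comparison, AOM-DSS Claudin-2TG against AOM-DSS WT, asked how the treated colon differed with claudin-2 overexpression. None of the 7 genes tested passed the test with edgeR, where 9.54% of all 14888 genes tested were called, 1 (*Avil*) had an unadjusted p under 0.05, as did 23.5% of all genes, and DESeq2 called 1 of 8, again *Avil*, where it called 12.1% of all genes. *Il25* and *Gfi1b* had too few counts. The median log2 fold change over the 7 was 0.24, against 0.01 over all genes.

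*Avil* was at 5.79, 5.07 and 4.65 CPM in AOM-DSS Claudin-2TG, below all 3 AOM-DSS WT libraries (6.76, 24.1 and 55.1 CPM), as 14.3% of all genes tested lay. The log2 fold change was -2.48 (SE 0.71, adjusted p = 0.0827, edgeR). It passed the threshold with DESeq2 (-2.49, adjusted p = 0.0178), in the fit of all 9 libraries (-2.48, adjusted p = 0.0349, edgeR) and without library 4 (-2.94, adjusted p = 0.000811, edgeR). Without library 6 it was -1.57 (adjusted p = 0.114, edgeR). The AOM-DSS Claudin-2TG values were within the spread of Control WT or just below it, with a log2 fold change between these groups of -0.40 (SE 0.24, adjusted p = 0.315, edgeR).

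*Dclk1* was at 10.6, 7.80 and 6.13 CPM and *Trpm5* at 6.20, 4.16 and 6.13 CPM in AOM-DSS Claudin-2TG. For both genes these values overlapped those of AOM-DSS WT, and the means lay between those of Control WT and AOM-DSS WT. Against AOM-DSS WT the log2 fold changes were 0.53 (SE 0.27, adjusted p = 0.286, edgeR) for *Dclk1* and 0.56 (SE 0.27, adjusted p = 0.254) for *Trpm5*. *Pou2f3*, at 0.896, 0.861 and 1.33 CPM, gave 0.24 (SE 0.42, adjusted p = 0.819), and *Sh2d6*, at 2.82, 2.74 and 3.47 CPM, gave -0.01 (SE 0.29, adjusted p = 0.989). *Alox5*, at 2.96, 2.08 and 2.88 CPM, gave 0.39 (SE 0.30, adjusted p = 0.507), and *Il17rb*, at 2.07, 2.13 and 1.26 CPM, gave -0.47 (SE 0.36, adjusted p = 0.514). A p above the threshold does not show that the groups were alike.

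The third comparison, AOM-DSS Claudin-2TG against Control WT, shares its samples with the first and second and sets the treated transgenic colon beside the untreated WT colon. *Dclk1* was lower (log2 fold change -0.88, SE 0.24, adjusted p = 0.0437, edgeR), 1.84-fold, and it was the 1 gene called of the 7 tested, where 10% of all 15013 genes were called and 6.07% as lower. An unadjusted p under 0.05 was reached by 4 of the 7 and by 26% of all genes. All 7 log2 fold changes were negative, from -0.88 to -0.26, and their median was -0.60 against 0.00 over all genes. The 3 values of *Dclk1*, *Trpm5* and *Pou2f3* each lay below all Control WT values, as 16.3% of all genes did. *Trpm5* (-0.69, SE 0.22, adjusted p = 0.0773), *Pou2f3* (-0.75, SE 0.30, adjusted p = 0.143) and *Sh2d6* (-0.60, SE 0.26, adjusted p = 0.164) did not pass the test (edgeR). With libraries scaled to the 10 epithelial markers in place of TMM, 4 genes were called lower, these 3 and *Dclk1*. That scaling called 15.5% of all genes lower and moved the median of all genes by -0.26 (log2), and the markers it rests on were themselves mostly higher in this comparison (2 of 10 called higher with TMM, 9 of 10 positive, median 0.23). The *Dclk1* call was lost without Control WT library 2 or 3 or AOM-DSS Claudin-2TG library 8 or 9 (adjusted p = 0.0637, 0.156, 0.137 and 0.116, edgeR) and in the fit of all 9 libraries (0.0863). *Gfi1b*, not tested here, was at 0.482, 0.253 and 0.369 CPM (5 to 7 counts).

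**Figure D3:**
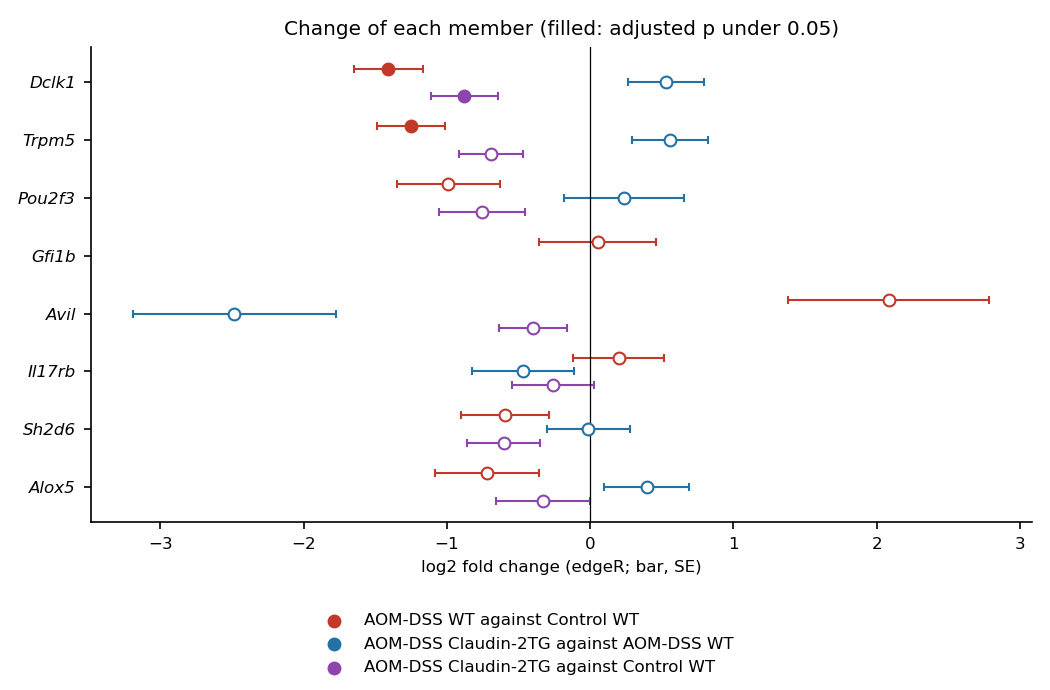
log2 fold change of each gene tested on the x axis (bars, SE; edgeR) with a row for each gene and a colour for each comparison, and filled points for an adjusted p under 0.05. Filled points are Dclk1 at -1.41 and -0.88 and Trpm5 at -1.25, and Avil lies at 2.08 and -2.48 with the widest bars.

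Other genes of tuft cells were counted from lists of 41 genes, of which 36 were tested in AOM-DSS WT against Control WT (1 had no row). There 7 were called lower and 4 higher, against 15% of all genes called and 6.92% called lower, and their median log2 fold change was 0.09 against 0.02 over all genes. The 7 lower genes included 2 of the taste-type cascade, *Gnat3* (the gustducin alpha subunit) and *Rgs13* (a regulator of G-protein signalling), and 1 of the transcription list, *1810046K07Rik*, which encodes a coactivator of POU2F3. *Gnat3* was at 0.796, 0.854 and 1.35 CPM in Control WT and 0.203, 0.398 and 0.335 CPM in AOM-DSS WT (log2 fold change -1.64, SE 0.42, adjusted p = 0.0378, edgeR). *Rgs13* went from 3.88, 3.97 and 6.08 CPM to 1.98, 2.56 and 1.74 CPM (-1.12, adjusted p = 0.0402). *1810046K07Rik* went from 1.19, 1.41 and 2.0 CPM to 0.457, 0.619 and 0.402 CPM (-1.59, adjusted p = 0.0275). All 3 separated the groups without overlap, as did 20.3% of all genes in this direction. In the AOM-DSS WT libraries *Gnat3* rested on 4, 9 and 5 counts and *1810046K07Rik* on 9, 14 and 6 counts. The calls of *Gnat3*, *Rgs13* and *1810046K07Rik* held in 6 of 14, 10 of 16 and 8 of 14 alternatives.

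Of the remaining lower genes, *Sh2d7*, a relative of *Sh2d6*, went from 3.53, 4.22 and 5.86 CPM to 1.83, 2.30 and 1.27 CPM (-1.30, adjusted p = 0.0339, edgeR). *Ly6g6f*, a membrane protein gene, went from 0.796, 1.15 and 1.35 CPM to 0.305, 0.398 and 0.335 CPM (-1.62, adjusted p = 0.0280). It rested on 6, 9 and 5 counts in AOM-DSS WT, and its call held in 7 of 13 alternatives. *Pla2g4a*, the phospholipase that frees arachidonic acid (-0.61, adjusted p = 0.0406), and *Ildr1*, a tricellular junction gene (-0.70, adjusted p = 0.0196), stood at 35.6 CPM or more in every library. The 4 genes called higher were *Inpp5d* (1.02, adjusted p = 0.0304), *Kctd12* (0.94, adjusted p = 0.0160), *Vav1* (0.70, adjusted p = 0.0402) and *Ptpn6* (0.45, adjusted p = 0.0265, edgeR). *Inpp5d*, *Vav1* and *Ptpn6* encode signalling proteins that blood cells also use. With the scaling to epithelial markers 7 were called lower and 1 higher, against 8.95% and 5.13% of all genes. Leaving out 1 library moved these counts most. Without Control WT library 2, edgeR called 0 of 36, and 15 had an unadjusted p under 0.05. Without Control WT library 1 or 3 or AOM-DSS WT library 6 it called 1 higher and 0 lower, without library 5 it called 1 higher and 2 lower, and without library 4 it called 8 higher and 6 lower. No share over all genes is given for these fits, so a loss particular to tuft genes cannot be told from one over all genes. DESeq2 on all 6 libraries called 6 higher and 5 lower of 37, and its share over all genes is not given for this comparison.

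**Figure D4:**
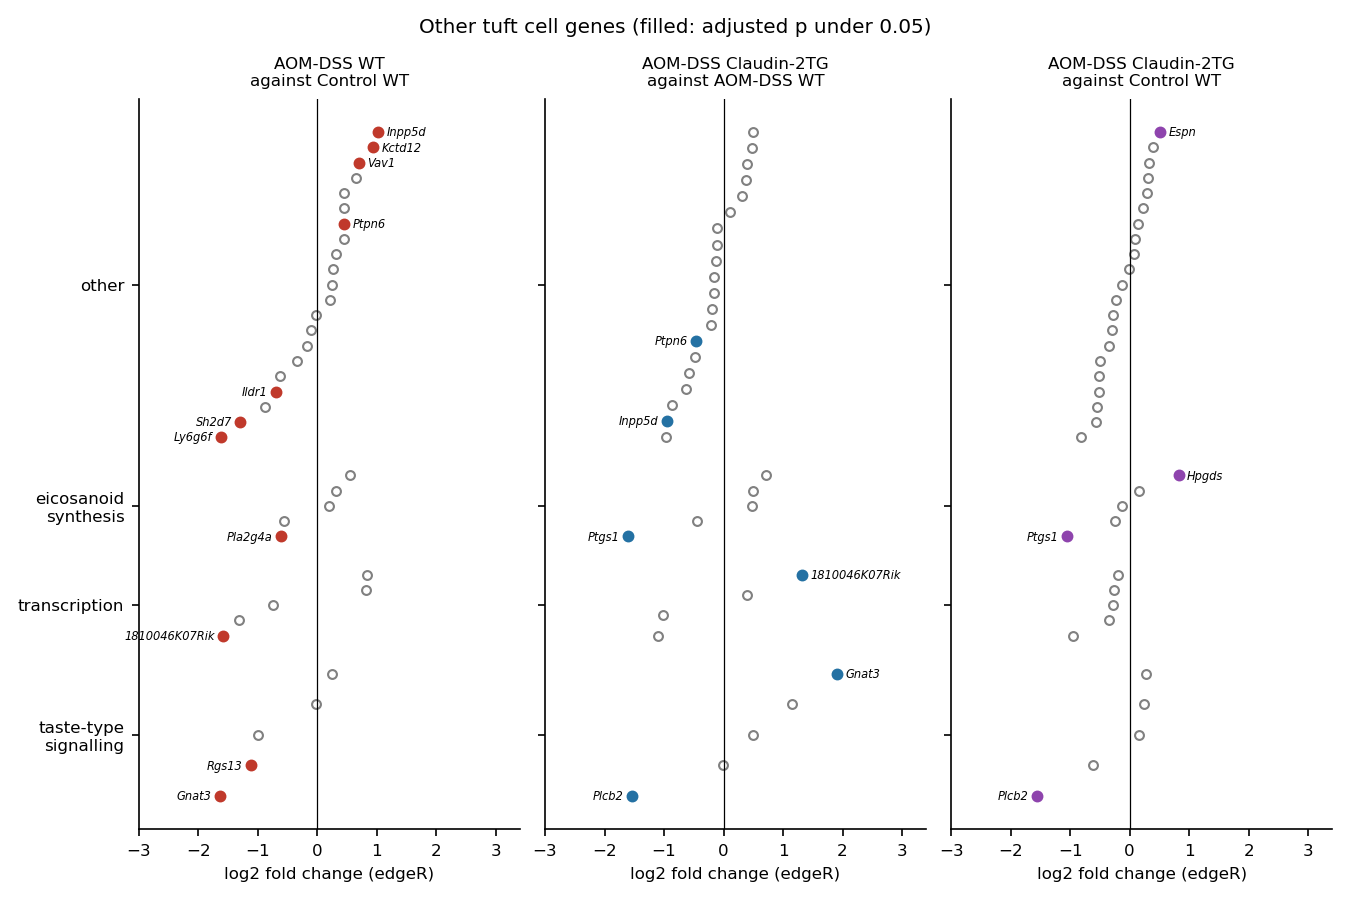
log2 fold change (x axis, edgeR) of each further tuft gene tested, in rows by list and in 1 panel for each comparison, with filled and named points for an adjusted p under 0.05. In the first panel 7 named genes lie on the lower side and 4 on the higher side, in the second 4 lower and 2 higher, and in the third 2 lower and 2 higher.

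In AOM-DSS Claudin-2TG against AOM-DSS WT, 2 of 34 further tuft genes were called higher and 4 lower, against 9.54% of all genes called, and their median was -0.12. *Gnat3*, at 1.38, 0.760 and 1.55 CPM in AOM-DSS Claudin-2TG, was higher (log2 fold change 1.91, SE 0.46, adjusted p = 0.0350, edgeR), and so was *1810046K07Rik*, at 1.38, 1.22 and 1.26 CPM (1.33, SE 0.35, adjusted p = 0.0496). The call of *Gnat3*, set against 4, 9 and 5 counts in AOM-DSS WT, held in 8 of 13 alternatives, DESeq2 among them. That of *1810046K07Rik* held in only 2 of 13, with adjusted p up to 0.163 by edgeR and 0.146 by DESeq2. Both overlapped Control WT (log2 fold changes 0.27 and -0.26, adjusted p = 0.691 and 0.637). *Ptgs1*, which encodes cyclooxygenase-1, was lower at 5.24, 3.60 and 3.92 CPM against 10.6, 13.7 and 13.9 CPM (-1.60, adjusted p = 0.00848, edgeR). *Plcb2*, the phospholipase of the taste-type cascade, was lower at 0.482, 0.811 and 0.665 CPM against 1.52, 1.81 and 2.41 CPM (-1.54, adjusted p = 0.0326). *Inpp5d* (-0.95, adjusted p = 0.0276) and *Ptpn6* (-0.46, adjusted p = 0.0422) were the remaining lower genes. None of the 6 was called in all fits that left out 1 library: without AOM-DSS Claudin-2TG library 8 or 9, 0 of 35 were called by edgeR, with 15 and 10 at an unadjusted p under 0.05. Without library 7, 5 or 6 the calls were 0 higher and 1, 1 and 2 lower, and without library 4 they were 1 higher and 10 lower. DESeq2 called 1 higher and 7 lower of 37, where it called 12.1% of all genes. For the fits without 1 library no share over all genes is given.

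In AOM-DSS Claudin-2TG against Control WT, *Plcb2* (-1.56, adjusted p = 0.0154, edgeR) and *Ptgs1* (-1.05, adjusted p = 0.0218) were also lower, while *Hpgds*, which makes prostaglandin D2 (0.82, adjusted p = 0.0482), and *Espn*, an actin-bundling gene (0.52, adjusted p = 0.0133), were higher. The other 32 of 36 were not called, and 10% of all genes were. The median over the 36 was -0.21. With the scaling to epithelial markers edgeR called 5 lower and 0 higher, against 15.5% of all genes lower and 0.773% higher, and without Control WT library 3, 0 of 36 were called, with 7 at an unadjusted p under 0.05. For the fit without library 3 no share over all genes is given.

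The cytokine loop around tuft cells was covered by 14 genes, of which 6 were tested. The 8 not tested included *Il13*, *Il5* and *Il9*, with means of 0 to 0.0446 CPM in each group, *Il9* being at 0 counts in all 9 libraries. *Il1rl1*, the IL-33 receptor, was at 2.44, 0.703 and 0.825 CPM in Control WT, 2.59, 26.1 and 14.4 CPM in AOM-DSS WT and 1.65, 0.608 and 0.665 CPM in AOM-DSS Claudin-2TG. Like *Avil*, it was highest in libraries 5 and 6, and it was called in both directions (log2 fold change 3.46, adjusted p = 0.0453, and then -3.91, adjusted p = 0.0396, edgeR). *Il4ra*, a subunit of the IL-4 and IL-13 receptors, was also highest in these 2 libraries, at 125.5 and 89.8 CPM against 17.7 to 37.3 CPM in the other 7, and was called in AOM-DSS Claudin-2TG against AOM-DSS WT (-2.01, adjusted p = 0.0305). *Clca1*, a goblet cell product that IL-13 induces, had a mean of 3984 CPM in Control WT, 2010.2 in AOM-DSS WT and 4014 in AOM-DSS Claudin-2TG, and was called lower (-0.96, adjusted p = 0.0173) and then higher (0.98, adjusted p = 0.0372, edgeR).

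Markers of other cells also differed between the groups, and their part in the results above was not tested. The 6 pan-leukocyte markers were all called higher in AOM-DSS WT than in Control WT, where 8.04% of all genes were called higher. They were all called lower in AOM-DSS Claudin-2TG than in AOM-DSS WT, where 9.54% of all genes were called in either direction. Their sum was 37.3 to 78.8 CPM in Control WT, 133.3 to 205.4 CPM in AOM-DSS WT and 32.8 to 57.0 CPM in AOM-DSS Claudin-2TG. The sum of 6 macrophage markers (5 of 6 called in both comparisons) was 53.1 to 97.2, 123.4 to 268.8 and 30.7 to 62.8 CPM in the same order, and its highest libraries were 5 and 6, as for *Avil*. None of these 12 markers was at 0 in any library. In AOM-DSS Claudin-2TG against Control WT edgeR called 0 of 6 leukocyte and 0 of 6 macrophage markers, and 10% of all genes. There 0 and 2 of these markers had an unadjusted p under 0.05. The sum of 7 enteric neuron and glia markers was 30.6 to 48.9 CPM in Control WT, 25.3 to 41.5 CPM in AOM-DSS WT and 11.1 to 16.2 CPM in AOM-DSS Claudin-2TG. *Ret* alone was at 31.1 and 29.1 CPM in libraries 5 and 6, against 12.2 CPM or less elsewhere. Without *Ret*, left out after its values were seen, the sums of the other 6 were 23.2 to 38.5, 8.004 to 18.4 and 8.11 to 13.0 CPM in the same order, and neither treated group overlapped Control WT. Of the 7, none was at 0 in any library. In AOM-DSS WT against Control WT edgeR called 2 lower, against 6.92% of all genes, and DESeq2 called 3 lower and *Ret* higher (log2 fold change negative in 6 of 7, median -1.18). In AOM-DSS Claudin-2TG against Control WT edgeR called all 7 lower, against 6.07% of all genes. *Dclk1*, which fell in both comparisons, is also a gene of neurons, and the part of these cells in its fall was not tested. Of the 10 epithelial markers, none was called by edgeR in AOM-DSS WT against Control WT (3 had an unadjusted p under 0.05, and DESeq2 called 1), and 2 were called higher in AOM-DSS Claudin-2TG against Control WT.

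Among other lists, 4 of 4 neutrophil markers tested were called higher in AOM-DSS WT than in Control WT, as were 3 of 4 mast cell markers, with *Kit* lower (-1.23, adjusted p = 0.00554, edgeR). Of all genes, 8.04% were called higher there. Of the 5 neutrophil markers listed, 4 were at 0 counts in 1 or more libraries. The other, *Ly6g*, was at 136.6 to 206.8 CPM in Control WT, 297.9 to 326.8 CPM in AOM-DSS WT and 301.9 to 350.2 CPM in AOM-DSS Claudin-2TG. In AOM-DSS WT against Control WT, goblet markers (1 of 7) and megakaryocyte and erythroid markers (1 of 3) had a single gene each called higher, and nothing is read from these. In that comparison no B cell (0 of 4), fibroblast (0 of 5), smooth muscle (0 of 4) or enteroendocrine (0 of 7) marker was called by edgeR, with 1, 3, 1 and 0 at an unadjusted p under 0.05 and 1, 2, 1 and 0 called by DESeq2. In AOM-DSS Claudin-2TG against Control WT, where *Dclk1* was called, all 4 smooth muscle markers lay below all Control WT values (median log2 fold change -1.39), as 16.3% of all genes did. EdgeR called 2 of them lower and DESeq2 all 4, where edgeR called 6.07% of all genes lower and DESeq2 called 10.8% in either direction. In AOM-DSS Claudin-2TG against AOM-DSS WT, edgeR called 1 of 5 fibroblast and 1 of 4 B cell markers lower and DESeq2 called all 5 and all 4. Of all genes, edgeR called 9.54% there and DESeq2 12.1%, in either direction. EdgeR also called 2 of 3 neutrophil markers lower there, and of 4 mast cell markers it called 2 lower and 1 higher. Against Control WT the 1 neutrophil marker tested in AOM-DSS Claudin-2TG, *Ly6g*, was called higher (0.87, edgeR), where 10% of all genes were called. The 7 enteroendocrine markers, of another epithelial lineage, all had positive log2 fold changes in AOM-DSS Claudin-2TG, with a median of 0.38 against AOM-DSS WT and 0.57 against Control WT. Against AOM-DSS WT 1 was called higher, *Gcg* (1.15, adjusted p = 0.0347, edgeR). Against Control WT edgeR called 0 of 7, with 4 at an unadjusted p under 0.05, and DESeq2 called 1. There 4 of 7 lay above all Control WT values, as 14.9% of all genes did.

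Over the 9 libraries, the genes outside the 9 whose log2 CPM was most like the mean standardized profile of *Trpm5*, *Pou2f3*, *Avil*, *Sh2d6* and *Gfi1b* were *Mest* (Pearson r = 0.94), *Rian* (0.94), *Prkab1* (0.93), *Fbxo3* (0.93) and *Pds5a* (0.91). These r are descriptions over libraries that share groups, and the 5 genes differed among themselves: r to that mean was 0.88 for *Sh2d6*, 0.80 for *Trpm5*, 0.78 for *Pou2f3*, 0.68 for *Gfi1b* and -0.17 for *Avil*. Each of these 5 r is raised by the gene's own part in the mean. Taking *Trpm5* alone, a choice made after the values were seen, r was 0.89 for *Dclk1*, 0.86 for *Pou2f3*, 0.81 for *Sh2d6*, 0.79 for *Alox5*, 0.29 for *Gfi1b*, -0.01 for *Il17rb* and -0.58 for *Avil*. Outside the 9, the closest genes to *Trpm5* were *Gm2415* (0.99), *Galnt7* (0.98), *Fam13b* (0.98), *Mansc1* (0.97) and *Fmo2* (0.97). The further tuft genes ran both ways, from *Sh2d7* (0.95), *Ly6g6f* (0.94), *Hmx3* (0.93) and *Rgs13* (0.91) to *Ptpn6* (-0.73), *Inpp5d* (-0.76), *Kctd12* (-0.77), *Skap2* (-0.83) and *Vav1* (-0.89). Taking *Avil* alone, again after its values were seen, the closest genes were *Sccpdh* (0.99), *Jaml* (0.98), *Igsf11* (0.98), *Tmem176b* (0.98) and *Pgm2l1* (0.98). The further tuft genes closest to *Avil* were *Sox4* (0.96) and *Fyb* (0.91).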

How the data were processed

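Total colon RNA was sequenced by the authors in 2 lanes a library. The paper's methods name TopHat2 for mapping and the submitters' processing notes name HISAT2. Both name featureCounts, and the build is GRCm38. Versions, settings and strand are not given in the sources used here. The deposited values are whole-number counts for each gene and lane, without normalization, with the exonic length of each gene; lane pairs differed by no more than sampling noise (chi-square per degree of freedom 0.995 to 1.06, against 16.8 to 66.3 between libraries of a group, genes with at least 20 counts) and were added. Symbols came from GENCODE M21 (47224 of 47729 identifiers). The deposited gene ends of *Il17rb* and *Sh2d6* differ from that annotation.

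Each pair of groups was tested on its 6 libraries with edgeR 4.0.16 (R 4.3.3; TMM, filterByExpr with minimum count 10 and total 15, robust quasi-likelihood test, two-sided, Benjamini-Hochberg over all genes tested, threshold 0.05). SE were derived from the test statistic. CPM per library use TMM over all 9. Alternatives were DESeq2 1.42.0, other scalings and filters, single lanes, all 9 libraries in 1 fit and leaving out each library. The test was checked on simulated data. The members and lists were chosen with earlier results of these data known. All 9 members were named. Of the other tuft and cytokine loop genes, those with an adjusted p under 0.05 in any comparison were named, up to 12 a comparison, with counts for the rest (*Il13*, *Il5*, *Il9*, *Retnlb*, *Hmx3*, *Skap2*, *Sox4*, *Fyb*, *Tsfm*, *Tssc4* and *Actr8* were named after their values were seen). Like patterns used log2 CPM with a prior count of 2. Figures and tables were made with Python 3.11.15, pandas 2.3.3, scipy 1.17.1 and matplotlib 3.10.9.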

Additional observations from a re-analysis of the deposited data

How the results depend on the processing

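No paired analysis was possible because the groups share no replicate numbers. The number of the 9 genes called in AOM-DSS WT against Control WT was 2 and became 3 with all 9 libraries in 1 fit and 4 at an unadjusted p under 0.05, and leaving out 1 library gave 0 to 4. In AOM-DSS Claudin-2TG against AOM-DSS WT it was 0 and became 1 (*Avil*) with DESeq2, with all 9 libraries in 1 fit and at an unadjusted p under 0.05, and leaving out 1 library gave 0 to 1. In AOM-DSS Claudin-2TG against Control WT it was 1 and became 2 with library size only or with no filter on low counts, 4 with the scaling to epithelial markers or at an unadjusted p under 0.05, 0 with all 9 libraries in 1 fit or lane 2 only, and 0 to 1 without 1 library. The cause of these shifts was not tested, and the share of all genes called without 1 library is not given. Of 345 single fold changes refitted, 13 turned sign, none of them called: *Gfi1b* in AOM-DSS WT against Control WT (-0.0685 with the scaling to epithelial markers, -0.20 to 0.31 without 1 library), *Il17rb* there (-0.0289 with lane 1 only, -0.0829 to 0.39 without 1 library), *Sh2d6* in AOM-DSS Claudin-2TG against AOM-DSS WT (0.00576 with no filter, 0.00344 with lane 1 only, -0.17 to 0.22 without 1 library) and *Alox5* in AOM-DSS Claudin-2TG against Control WT (-0.58 to 0.0718 without 1 library). *Dclk1* and *Trpm5* kept their sign in all alternatives of all 3 comparisons. The scaling to epithelial markers moved the median of all genes by -0.11, -0.15 and -0.26 (log2) in the 3 comparisons, and library size only by -0.01, -0.10 and -0.11. With 3 libraries a group and 5 to 18 counts for *Gfi1b*, depth limits that gene most after *Il25*.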
